A study of Mus musculus with 11 samples.

Results

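Nfil3 and 9 core genes of the circadian clock were followed across epithelial cells of the mouse small intestine: Nfil3, Dbp, Bhlhe40, Arntl, Clock, Per1, Per2, Per3, Nr1d1 and Nr1d2. The genes are listed by name as clock genes, with no threshold on their values, and 9 of the 10 were read from a table of 11366 genes. Per1 was not analysed here, and the list was chosen with earlier results of these data known. All 9 were among the 10482 genes tested, which had an RPKM (reads scaled by gene length and library total) of at least 1 in at least 3 libraries.

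The 11 libraries came from wild-type (WT) mice, sorted as live CD45-CD31-EpCAM+CD44- cells. All 3 groups share this gate against leukocytes, endothelium and CD44-bearing crypt cells, but crypt markers still differed between groups, as given below. Control mice ate standard chow and had no treatment (libraries 2, 4 and 5, n = 3). NFF mice ate a low fermentable fiber diet (n = 4), and SFB mice ate standard chow and were colonized with SFB, read here as segmented filamentous bacteria (n = 4). The sources used here give neither the hour at which tissue was taken nor the age of the mice, so the time of collection and the group cannot be told apart. Whether each library is a separate animal is not in the labels, so p-values reflect no more than the spread among these samples and part of that may be technical.

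The clock of mammalian cells is a transcriptional loop. ARNTL (also called BMAL1) and CLOCK pair on E-box sequences and switch on the Per and Cry genes, Nr1d1, Nr1d2, Dbp and Bhlhe40. PER and CRY proteins then inhibit the pair, while NR1D1 and NR1D2 (REV-ERB alpha and beta) repress Arntl and Nfil3 through ROR elements. DBP and TEF activate, and NFIL3 represses, genes with a D-box. In the intestinal epithelium NFIL3 is known as a rhythmic regulator of lipid uptake whose level depends on the microbiota.

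Short stretches that hold these elements are shown because Nfil3 and Arntl, both higher in SFB than in NFF, hold the same element, and the other 3 show the remaining elements searched. Sequences are those of RefSeq on GRCm38.p6, read 5′ to 3′ on the gene's own strand, from windows of 250 bases before to 50 bases after a start site. Windows were found for 7 of the 9 measured genes, 10 windows in all, and those of Bhlhe40 and Per2 were not used here. Capitals mark the matched letters. The ROR element was searched as ANTAGGTCA or ANTGGGTCA, the D-box as TTATGTAA or TTACGTAA, the E-box as CACGTG and the E-prime box as CACGTT, each on both strands, and no match overlapped another.
Nfil3, chr13:52981033-52981062, minus strand: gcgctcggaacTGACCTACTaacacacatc
Arntl, chr7:113207528-113207557, plus strand: ggaaggcagaaAGTAGGTCAgggacggagg
Nr1d1, chr11:98775373-98775432, minus strand: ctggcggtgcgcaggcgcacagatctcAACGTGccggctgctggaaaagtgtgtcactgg
Per3, chr4:151044804-151044883, minus strand: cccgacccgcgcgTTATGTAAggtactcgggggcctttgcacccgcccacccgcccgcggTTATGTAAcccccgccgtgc
Cry1, chr10:85185092-85185151, minus strand: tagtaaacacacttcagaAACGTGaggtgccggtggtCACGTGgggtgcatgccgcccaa

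The ROR element stood in the Nfil3 window and in an Arntl window, and 1.26% of the 9161 genes of the table with a window held it. The other Arntl window held none, nor did the window of Cry1, also called higher in SFB than in NFF. Any part of the element in these differences was not tested. The Nfil3 match is on the reverse strand and the Arntl match on the gene's strand, and both stretches lie in the 5′ UTR of the GENCODE M21 models. The D-box, held by 0.884% of genes, occurred at 2 places upstream of Per3. The E-prime box, held by 6.47%, stood in reverse before Nr1d1 and Cry1, and the E-box, held by 11.8%, stood before Cry1 and Tef. None of the 4 motifs was in the windows of Dbp, Clock or Nr1d2. A match describes letters and is not a measured binding site.

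Transcripts of the activator Arntl and of Nfil3 were higher in SFB than in NFF, whereas those of Nr1d1, Nr1d2, Bhlhe40 and Dbp were lower. A gene was called where limma on log2(RPKM + 1) gave an adjusted p (Benjamini-Hochberg) under 0.05, and all log2 differences below are on that scale. Of the 9 clock genes, 6 were called in SFB against NFF, 2 higher and 4 lower, where 7.34% of all tested genes were called. The groups did not overlap in the same 6 genes, against 20.0% of all tested genes. The list was chosen with earlier results known, so both counts are descriptions and not tests of the list. Dbp, 1 of the 6, passed the filter only through NFF libraries, where it is high. Clock, Per2 and Per3 were not called. The median difference over the 9 genes was -0.22, beside 0.02 over all genes tested. Diet and colonization both differ in that comparison, so it separates neither.

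Nfil3 (chr13:52967209-52981073), the D-box repressor, had the lowest p of the 9 and ranked 11 of 10482 genes in SFB against NFF. It stood at 11.2, 20.9 and 16.0 RPKM in Control 2, 4 and 5. The NFF libraries 1 to 4 held 11.3, 8.12, 7.46 and 7.50 RPKM, and the SFB libraries 1 to 4 held 29.4, 28.0, 31.6 and 27.7. Every SFB library lay above every Control and NFF library, while NFF 1 lay just above the lowest Control library. The Control mean was 16.0 ± 4.85 RPKM (SD, n = 3), the NFF mean 8.59 ± 1.82 (SD, n = 4) and the SFB mean 29.2 ± 1.78 (SD, n = 4), which was 3.39 times the NFF mean.

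The log2 difference of Nfil3 in SFB against NFF was 1.67 ± 0.18 (SE; limma, Benjamini-Hochberg adjusted p = 0.000719), with a 95% interval of 1.29 to 2.05. It was called in 19 of 19 alternative fits. Against Control, the SFB difference was 0.86 ± 0.19 (adjusted p = 0.0852) and the NFF difference was -0.81 ± 0.19 (adjusted p = 0.526), neither of which was called. Without Control 4, the Control library with the most Nfil3, the SFB difference was 1.07 and was called (adjusted p = 0.0451). That was the 1 call among 19 alternative fits of SFB against Control, where the limma adjusted p ran up to 0.585.

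**Figure D1:**
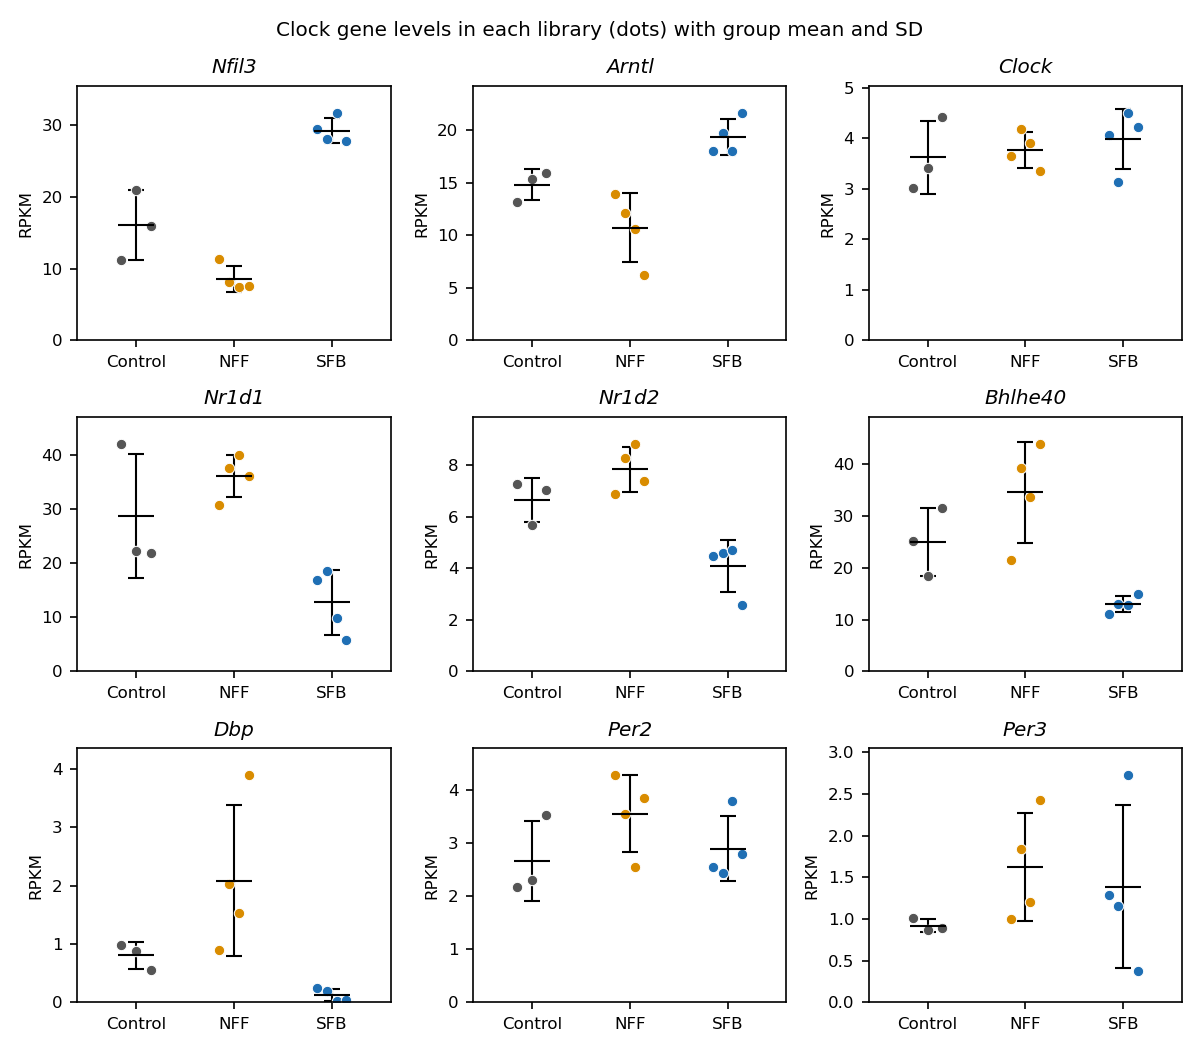
RPKM (vertical axes, from 0) of the 9 measured clock genes in each library (dots) of the Control, NFF and SFB groups, with group means and SD (bars). Nfil3 and Arntl are highest in the 4 SFB libraries, and Nr1d1, Nr1d2, Bhlhe40 and Dbp are lowest there, while Clock, Per2 and Per3 overlap between groups.

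Of the activating pair, Arntl was called in SFB against NFF and Clock was not. Arntl (chr7:113207465-113314126), the partner without which the loop does not run, stood at 13.2, 15.3 and 16.0 RPKM in Control 2, 4 and 5. It stood at 14.0, 12.1, 10.6 and 6.25 RPKM in NFF 1 to 4 and at 18.0, 19.7, 18.1 and 21.6 in SFB 1 to 4. All 4 SFB libraries exceeded all others, and NFF overlapped Control through NFF 1.

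The difference of Arntl in SFB against NFF was 0.84 ± 0.19 (SE; limma, adjusted p = 0.0242; 95% interval 0.42 to 1.26). The call was lost without NFF 2 (adjusted p = 0.0510), without NFF 3 (0.0541), with the replicate block (0.0759) and without Control 2, SFB 2 and SFB 4 together (0.0839). The difference was 0.36 ± 0.21 in SFB against Control (adjusted p = 0.509) and -0.48 ± 0.21 in NFF against Control (adjusted p = 0.896).

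Clock (chr5:76209868-76304792), the partner of ARNTL, was not called in any comparison. Its level was 3.03, 3.42 and 4.43 RPKM in the Control libraries, 3.65, 4.19, 3.91 and 3.36 in NFF 1 to 4 and 4.08, 3.13, 4.50 and 4.22 in SFB 1 to 4. The 3 groups overlapped throughout. The difference in SFB against NFF was 0.06, with a 95% interval of -0.23 to 0.34 (adjusted p = 0.820). Npas2, which can replace CLOCK, averaged 12.3 ± 3.32 RPKM over the SFB libraries (SD, n = 4) and 10.6 ± 3.45 over the NFF libraries (SD, n = 4), with a difference of 0.20 (adjusted p = 0.642).

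Both REV-ERB repressors were lowest in SFB. Nr1d1 (chr11:98767932-98775333) stood at 41.9, 22.3 and 21.9 RPKM in Control 2, 4 and 5, at 30.8, 37.6, 39.9 and 36.0 in NFF 1 to 4, and at 16.9, 18.5, 9.85 and 5.77 in SFB 1 to 4. The SFB libraries lay below all others, and Control 2 lay above all NFF libraries while Control 4 and 5 lay below them. Nr1d2 (chr14:18204054-18239127) stood at 7.26, 5.67 and 7.04 RPKM in the Control libraries, at 6.88, 8.28, 8.81 and 7.38 in NFF and at 4.48, 4.60, 4.71 and 2.56 in SFB. Its SFB libraries also lay below all others, with SFB 4 apart from the other 3.

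In SFB against NFF the difference was -1.54 ± 0.31 for Nr1d1 (SE; limma, adjusted p = 0.0147; 95% interval -2.22 to -0.86). It was -0.82 ± 0.16 for Nr1d2 (adjusted p = 0.0129; 95% interval -1.17 to -0.47). Without NFF 2 both missed the threshold, at adjusted p = 0.0514 and 0.0510. In SFB against Control the differences were -1.17 ± 0.34 (adjusted p = 0.189) and -0.61 ± 0.17 (adjusted p = 0.183). Nr1d1 shares 263 exon bases (8.55% of its own) with Thra, a thyroid hormone receptor gene on the opposite strand. The library kits do not mark strand, so reads there cannot be assigned, and Thra was lower too in SFB against NFF, with a difference of -0.71 (adjusted p = 0.00501).

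Bhlhe40 (chr6:108660629-108666925), an E-box repressor also known as DEC1, stood at 25.1, 18.5 and 31.6 RPKM in Control 2, 4 and 5. It was at 21.5, 39.3, 33.6 and 43.9 RPKM in NFF 1 to 4, and at 11.1, 13.0, 12.9 and 14.9 in SFB 1 to 4. All SFB libraries were below all others, while Control and NFF overlapped. The difference in SFB against NFF was -1.31 ± 0.22 (SE; limma, adjusted p = 0.00548; 95% interval -1.78 to -0.84), called in 19 of 19 alternative fits. Against Control it was -0.87 ± 0.23 (adjusted p = 0.151).

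The period genes, the inhibitors of ARNTL and CLOCK, were not called in any comparison. Per2 (chr1:91415982-91459324) stood at 2.17, 2.30 and 3.52 RPKM in Control, at 4.28, 3.54, 2.56 and 3.86 in NFF and at 2.56, 2.45, 3.80 and 2.79 in SFB. Per3 (chr4:151003652-151044665) stood at 1.01, 0.869 and 0.890 RPKM in Control, at 1.01, 1.84, 1.21 and 2.43 in NFF and at 1.28, 1.16, 2.73 and 0.382 in SFB. Both overlapped between all groups, and SFB 3 held the most and SFB 4 the least Per3 of all libraries. The 95% interval of SFB against NFF was -0.59 to 0.14 for Per2 (adjusted p = 0.425) and -0.76 to 0.38 for Per3 (adjusted p = 0.679). The sign for Per3 turned to 0.04 without SFB 4.

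Cryptochromes, the partners of PER, were read from a list of 9 further core clock genes, of which 6 were measured and 4 tested. Cry1 stood at 4.10, 3.07 and 5.01 RPKM in Control 2, 4 and 5, at 3.38, 2.18, 2.76 and 3.42 in NFF 1 to 4 and at 4.84, 7.39, 6.89 and 4.64 in SFB 1 to 4. SFB lay wholly above NFF and overlapped Control. It was the 1 called gene of the 4 in SFB against NFF, beside 7.34% of all tested genes, with a difference of 0.81 ± 0.18 (SE; limma, adjusted p = 0.0215). Cry2 was at -0.45 (adjusted p = 0.327). Rora and Rorb were too low to be tested, and Arntl2, Ciart and Bhlhe41 were not analysed here.

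Both measured D-box activators, Dbp and Tef, were lower in SFB than in NFF. Dbp (chr7:45705088-45710203) stood at 0.990, 0.884 and 0.551 RPKM in Control 2, 4 and 5, at 0.896, 2.02, 1.53 and 3.89 in NFF 1 to 4 and at 0.243, 0.199, 0.024 and 0.048 in SFB 1 to 4. The SFB libraries lay below all others, and NFF overlapped Control through NFF 1. Dbp reached 1 RPKM only in NFF 2, 3 and 4, so it passed the filter through the group where it is high. Leaving Dbp out, 5 of 8 clock genes were called in SFB against NFF.

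The fitted difference of Dbp in SFB against NFF was -1.37 ± 0.24 (SE; limma, adjusted p = 0.00708; 95% interval -1.89 to -0.85). It depends on the pseudocount at such levels and was -3.21 with a pseudocount of 0.1. Without the filter and without NFF 4 it was -1.12 (adjusted p = 0.0104). The differences from Control were 0.69 ± 0.26 in NFF (adjusted p = 0.879) and -0.68 ± 0.26 in SFB (adjusted p = 0.325). Dbp shares 539 exon bases (18.0% of its own) with Sphk2 on the opposite strand, which was at -0.34 in SFB against NFF (adjusted p = 0.119).

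Tef, a D-box activator of the same PAR bZIP family, stood at 2.71, 2.30 and 2.64 RPKM in Control 2, 4 and 5, at 2.33, 4.05, 3.68 and 4.37 in NFF 1 to 4 and at 0.732, 1.29, 1.41 and 0.368 in SFB 1 to 4. All SFB libraries were below all others. The difference in SFB against NFF was -1.25 ± 0.20 (SE; limma, adjusted p = 0.00436). The third member of the family, Hlf, was not analysed here.

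**Figure D2:**
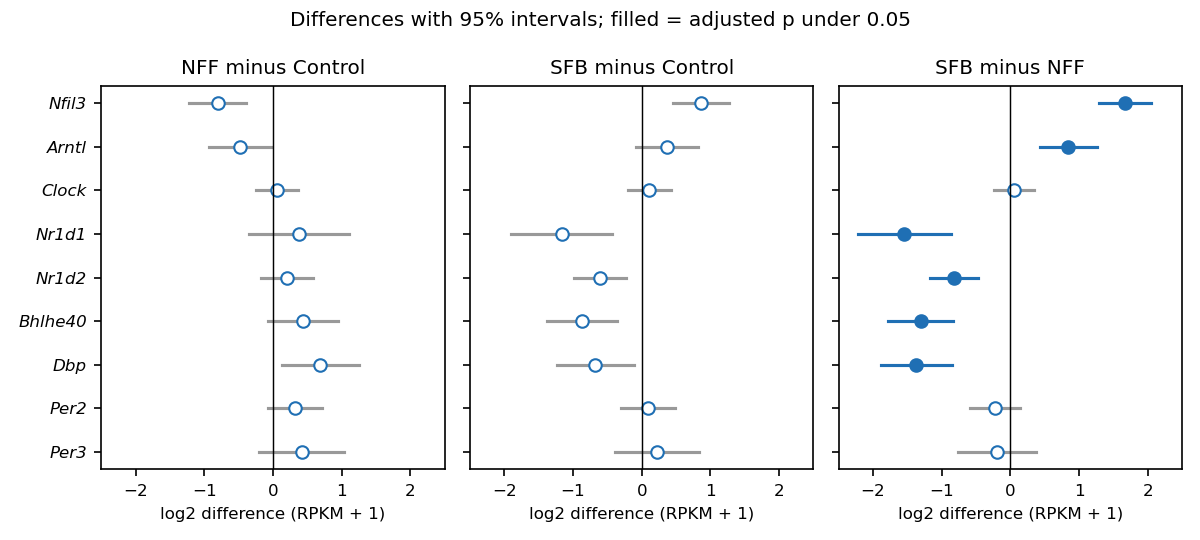
Log2 differences of RPKM + 1 (horizontal axes) with 95% intervals for the 9 genes in NFF minus Control, SFB minus Control and SFB minus NFF. Filled points mark adjusted p under 0.05 and occur only in SFB minus NFF, for 6 genes.

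Against Control alone, no clock gene was called in either group. In SFB against Control, 0 of 9 were called with limma, beside 21 genes (0.200%) of all tested. At an unadjusted p under 0.05 there were 5 of 9 (Nfil3 higher, and Dbp, Bhlhe40, Nr1d1 and Nr1d2 lower), beside 12.1% of all genes. The libraries did not overlap for 6 of 9, which adds Arntl, beside 9.71% of all genes. Dbp is in both counts, although it passed the filter only through NFF libraries.

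In NFF against Control, 0 of 9 were called, beside 0% of all genes. At an unadjusted p under 0.05 there were 3 of 9 (Nfil3 and Arntl lower, Dbp higher), beside 4.82% of all genes. Dbp is in this count only because it passed the filter through NFF libraries, where it is high. None of the 9 had groups without overlap, beside 9.77% of all genes. The median difference over the 9 genes was 0.32 in NFF against Control and 0.10 in SFB against Control, beside -0.01 and 0.01 over all genes. Both comparisons share the same 3 Control libraries.

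**Figure D3:**
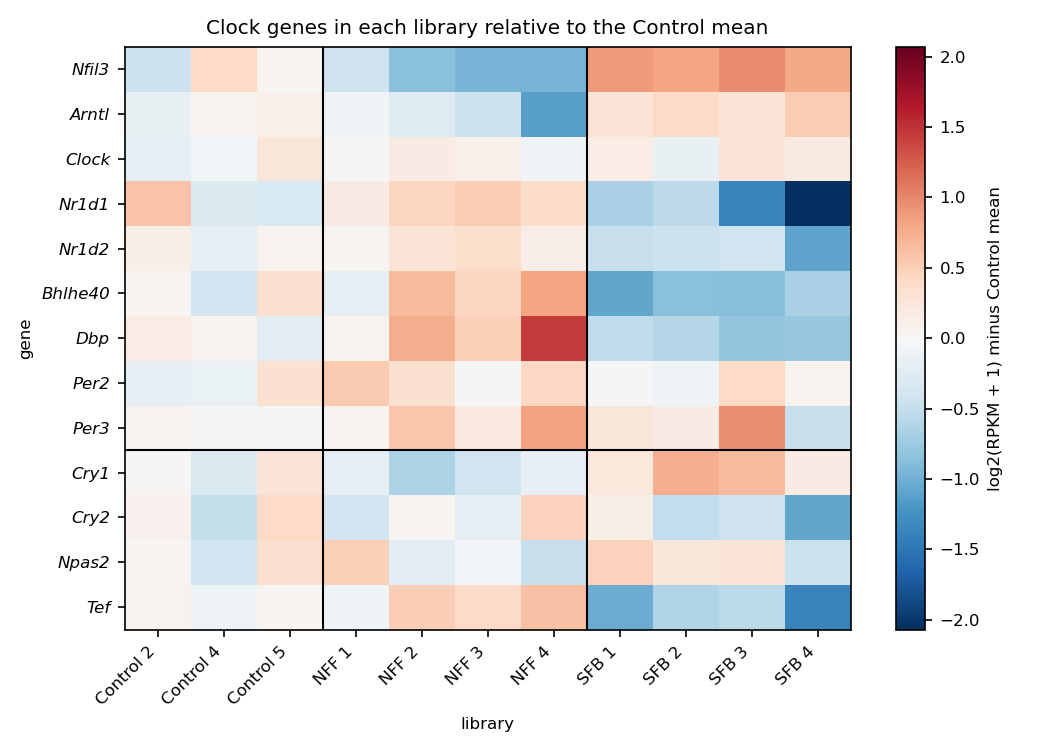
Difference of log2(RPKM + 1) from the Control mean (colour, red higher and blue lower) for the 9 clock genes (above the line) and 4 further clock genes (below it) in each of the 11 libraries. The SFB columns are red for Nfil3 and Arntl and blue for Nr1d1, Nr1d2, Bhlhe40, Dbp and Tef, and NFF 1 is paler than NFF 2 to 4 for Nfil3, Bhlhe40, Dbp and Tef.

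The order of the levels per length also differed between groups. In Control it ran from Nr1d1 over Bhlhe40 and Nfil3 to Arntl, then Nr1d2, Clock, Per2, Per3 and Dbp. Neighbours overlapped between libraries except between Arntl and Nr1d2, Nr1d2 and Clock, and Per2 and Per3. In NFF, Nr1d1 and Bhlhe40 again led, with overlap, and lay above Arntl, Nfil3 and Nr1d2, which overlapped. Clock, Per2, Dbp and Per3 came last, each overlapping the next. In SFB, Nfil3 led and Arntl came next, each separate from its neighbours, and they were followed by Bhlhe40 and Nr1d1, which overlapped. Nr1d2, Clock, Per2 and Per3 overlapped in a row below these, and Dbp was separate at the bottom.

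Ratios between 2 genes within a library do not depend on how that library was scaled, and are given as a description. The ratio of Nr1d1 to Arntl RPKM was 3.18, 1.46 and 1.37 in Control 2, 4 and 5, 2.21, 3.10, 3.76 and 5.76 in NFF 1 to 4, and 0.935, 0.941, 0.546 and 0.267 in SFB 1 to 4. Arntl exceeded Nr1d1 in all 4 SFB libraries and in none of the other 7. The ratio of Nfil3 to Tef was 4.14, 9.10 and 6.03 in Control, 4.83, 2.01, 2.03 and 1.72 in NFF, and 40.1, 21.7, 22.5 and 75.2 in SFB. The repressor thus stood at a higher multiple of the activator in every SFB library than in any other. The median ratio of Nfil3 to Bhlhe40 was 0.505 in Control, 0.214 in NFF and 2.30 in SFB.

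**Figure D4:**
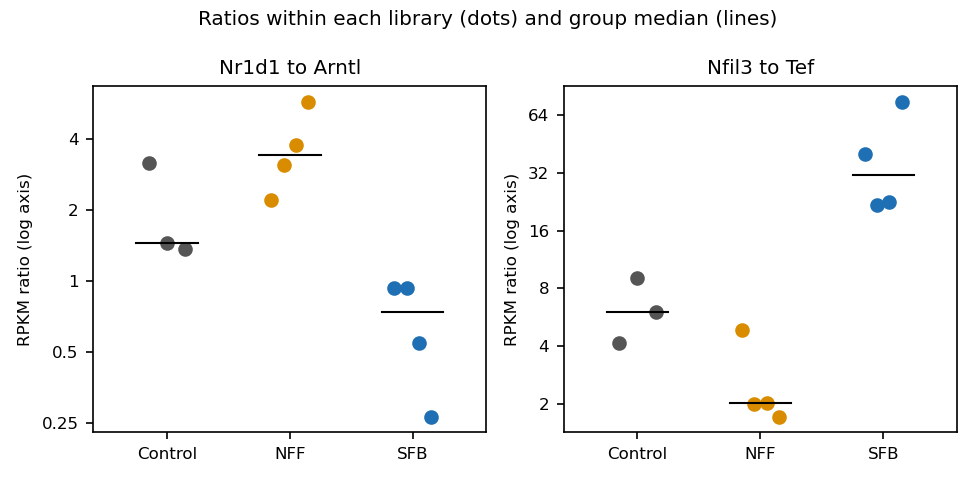
RPKM ratios of Nr1d1 to Arntl and of Nfil3 to Tef within each library (dots, logarithmic axes) with group medians (lines). The SFB libraries lie below 1 for the first ratio and above 21 for the second, apart from all Control and NFF libraries.

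Pearson r of log2(RPKM + 1) over the 11 libraries was computed between the clock genes and the 7607 or 7608 tested genes with a mean of at least 3 RPKM. The points share the 3 groups and 1 normalization, and r is given as a description. For Nfil3 the most alike genes were Irf8 (r = 0.97), Rnf125 (0.96), Armc8 (0.96) and Zfp946 (0.95), and the most opposed were 0610005C13Rik (-0.96), Rcan1 (-0.96), Fbp1 (-0.95) and Reg3a (-0.94). For Arntl they were Tex2 (0.95), Opa1 (0.94), Rnf125 (0.92) and Ttc39b (0.92), and Rp9 (-0.96), Isoc2b (-0.94), Use1 (-0.94) and Mthfsl (-0.94). For Dbp they included 0610005C13Rik, Eid1 and Ptms (each 0.96), and Arntl (-0.96), Plekhm1 (-0.95), Sppl2a (-0.94) and Rnf125 (-0.93). Arntl was thus the gene most opposed to Dbp among those ranked. With each group's mean subtracted, r between Dbp and Arntl was -0.88, and that between Dbp and Rnf125 was -0.66. The value of -0.88 leans on NFF 1 and NFF 4, with Dbp at 0.896 and 3.89 RPKM and Arntl at 14.0 and 6.25. In SFB, Dbp was near the floor, at 0.024 to 0.243 RPKM. After that subtraction, r for the genes most alike to Nfil3 ran from 0.51 (Armc8) to 0.82 (Zfp946). For those most opposed to Nfil3 it ran from -0.41 (Reg3a) to -0.85 (Fbp1). Part of these likenesses is thus the difference between groups.

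The remaining machinery of the clock was read from lists chosen with earlier results known. Of 9 kinases and turnover factors of clock proteins, such as the casein kinases, 0 were called with limma in any comparison, and all 9 were tested. Of 10 transport and metabolic genes known to be rhythmic, 3 were called in SFB against NFF, beside 7.34% of all tested genes. Nampt, the NAD salvage enzyme, averaged 12.3 ± 0.550 RPKM over the NFF libraries (SD, n = 4) and was higher in SFB, at 19.0 ± 1.75 (SD, n = 4), with a difference of 0.59 (adjusted p = 0.00676). Por, the electron donor of cytochrome P450 enzymes, was lower, with a difference of -0.89 (adjusted p = 0.00555), as was Abcb1a, a drug efflux pump, at -1.02 (adjusted p = 0.0324).

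Lists beside Nfil3 were short. Of 4 lipid genes linked to epithelial NFIL3, Scd1 and Cd36 were measured. Scd1, a fatty acid desaturase, stood at 0.329, 3.00 and 3.33 RPKM in Control 2, 4 and 5, at 5.23, 5.52, 4.56 and 2.90 in NFF and at 1.45, 1.23, 1.13 and 1.26 in SFB. SFB lay wholly below NFF, and Control 2 was the lowest library of all. The difference in SFB against NFF was -1.27 ± 0.32 (SE; limma, adjusted p = 0.0354), and that of Cd36, a fatty acid transporter, was -0.46 (adjusted p = 0.429).

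Of 6 genes upstream of Nfil3 in epithelium, 1 was called in SFB against NFF, where 7.34% of all genes were, and nothing is read from that count. Il10rb, a shared chain of the IL-10 and IL-22 receptors, was lower, with a difference of -0.40 (adjusted p = 0.0371), and Stat3, which relays IL-22 signals, was at 0.30 (adjusted p = 0.154). Of 5 glucocorticoid receptor targets, 4 were measured and 1 was called, again beside 7.34% of all genes. It was the kinase gene Sgk1, at 4.96 ± 2.30 RPKM over the SFB libraries (SD, n = 4) against 14.4 ± 1.61 over the NFF libraries (SD, n = 4), with a difference of -1.47 (adjusted p = 0.0214). In the comparisons with Control, none of the genes of these lists was called.

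**Figure D5:**
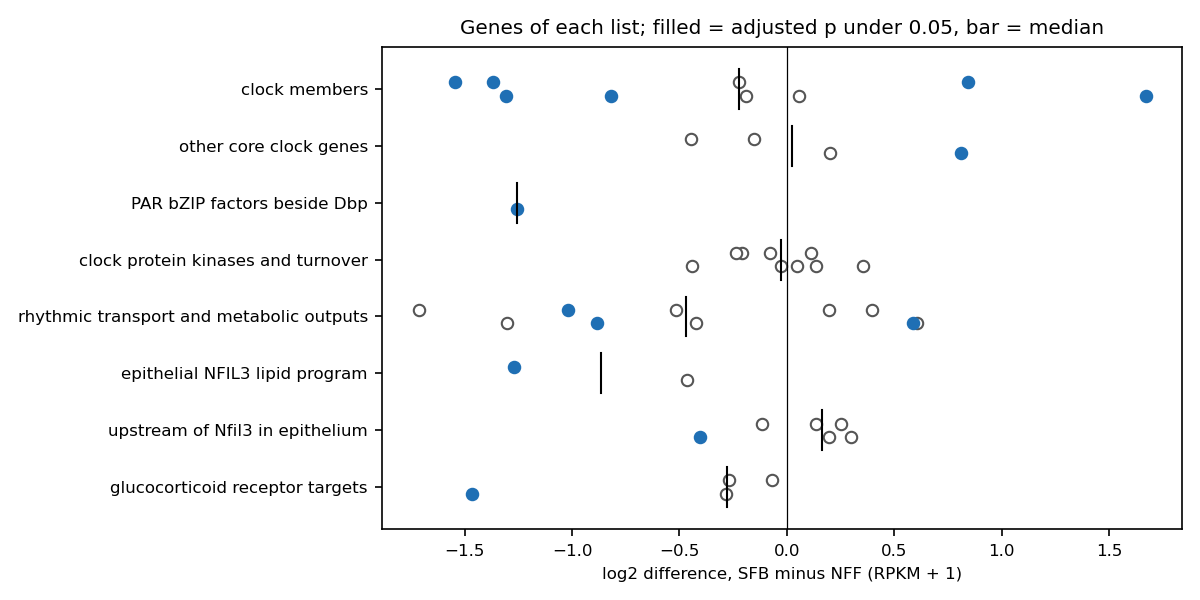
Log2 difference of RPKM + 1 in SFB minus NFF (horizontal axis) for each tested gene of the clock genes and of 7 further lists (rows), with list medians (bars) and filled points for adjusted p under 0.05. The clock genes spread from -1.54 to 1.67, and the 9 kinase and turnover genes have no filled point.

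Markers of several cell types moved with the groups, and in bulk RNA fewer cells of a type and less RNA per cell cannot be told apart. Epcam, which marks the epithelium, was abundant, at 489 to 670 RPKM over all libraries, and Ptprc, which encodes CD45, was at 0.247 to 2.48. Summed levels of 7 crypt and dividing-cell markers, all measured, were 18.3 to 70.6 RPKM in Control, 12.3 to 21.3 in NFF and 39.1 to 184 in SFB, with the maximum in SFB 4, and 3 were called higher in SFB against NFF. Cd44, whose protein the sort selected against, was 1 of these 3. It stood at 1.17 to 2.29 RPKM in SFB and 0.333 to 0.646 in NFF, with a difference of 0.80 (limma, adjusted p = 0.0125). Cd44 reached 1 RPKM only in SFB libraries, so it passed the filter through the group where it is high. Its call and its place in that count are descriptions only. Summed levels of 5 of 6 tuft cell markers were 36.9 to 74.5, 60.7 to 102 and 6.21 to 27.5 RPKM in Control, NFF and SFB. All 5 were called lower in SFB against NFF. The 6 enterocyte markers summed to 1375 to 6467, 2137 to 2609 and 996 to 2118 RPKM. All 6 were below 0 in SFB against NFF (median -1.10), with 1 called lower. The 6 Paneth cell markers summed to 9601 to 17626, 8023 to 12962 and 304 to 9348 RPKM. Again all 6 were below 0 in SFB against NFF (median -1.90), with 1 called lower. The 6 enteroendocrine markers summed to 318 to 1407, 401 to 1201 and 148 to 326 RPKM. In SFB against NFF, 5 of them were below 0 and 1 above (median -0.81), with 2 called lower. The 6 goblet cell markers summed to 4553 to 7086, 3781 to 10556 and 2293 to 5354 RPKM, with none called and all 6 below 0 in SFB against NFF (median -0.92). The 3 measured leukocyte markers of 11 summed to 23.5 to 52.2, 22.6 to 31.7 and 3.07 to 21.7 RPKM, with none called. Lyz2 made up most of that sum in every library except SFB 2, while Itgae averaged 0.715, 1.03 and 1.68 RPKM in Control, NFF and SFB. In SFB 1 to 4, Lyz2 stood at 14.2, 1.34, 17.2 and 7.25 RPKM. The Paneth cell marker Lyz1 stood at 2234, 28.1, 2603 and 1284 RPKM there, in the same order of libraries. Which cells the Lyz2 reads came from was not tested, so the sum is not a measure of leukocytes. No marker value was at 0, and endothelial and stromal markers were not analysed here. The part of these cells in the clock results was not tested.

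Control 2, SFB 2 and SFB 4 lay farthest from their groups, where the root mean square deviation from the group mean was 0.35, 0.38 and 0.43 (log2), against 0.16 to 0.28 in the other libraries. Control 2, which had the highest Nr1d1, also stood apart in markers of gut region: 5 distal markers summed to 252 RPKM there and to 3696 and 4141 in Control 4 and 5. They summed to 1933 RPKM in SFB 4, 3509 to 4833 in the other SFB libraries and 4287 to 4545 in NFF. All 5 were below 0 in SFB against NFF (median -0.51), with none called. The part of gut region in the clock results was not tested. Without Control 2, SFB 2 and SFB 4, a fit chosen after seeing the data, 5 of the 6 genes were still called in SFB against NFF. Without NFF 2 alone, 2 of the 6 were called (Nfil3 and Bhlhe40), and without NFF 3 alone, 4 were (those and both REV-ERB genes). In both of these fits Dbp fell under the filter and was not tested, and without the filter it was called in each. Summed RPKM over the table was 237248 to 302661 per library, and the read depth is unknown.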

How the data were processed

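Cells were sorted into lysis buffer, RNA was purified, cDNA was made with SMART-seq v4 and libraries with NexteraXT, per the labels' protocols. Neither kit marks strand or adds molecular identifiers. The authors deposited 1 table of RPKM values for 11366 genes. Reads were aligned with STAR to mm10, per the submitters' processing notes, and the sources used here do not name the counting tool or gene models. Of the table's Entrez identifiers, 11360 were found in RefSeq, and 15 symbols turned into dates were restored.

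RPKM is not a count, so log2(RPKM + 1) was analysed in R 4.3.3 with limma 3.58.1. The filter asked for 1 RPKM or more in 3 libraries or more. One mean per group was fitted over all 11 libraries, with 8 residual degrees of freedom, trended eBayes and two-sided tests, adjusted by Benjamini-Hochberg over all 10482 genes per comparison. The script was tested on simulated data. The genes, lists, motifs and alternatives were chosen with earlier results of these data known. Named were all clock genes, the measured further core clock and PAR bZIP genes, the called genes of the other lists or the 1 of lowest p, and the 4 genes most alike and most opposed to Nfil3, Arntl and Dbp. A few of these are not reported here. Coordinates are GENCODE M21 on GRCm38, the assembly that mm10 names. Alternatives were a pseudocount of 0.1, no filter, a filter at 3 RPKM, median ratio scaling, robust eBayes, a replicate block, only the groups compared, and leaving out each library.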

Additional observations from a re-analysis of the deposited data

Results flagged for a closer look

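Nr1d2 in SFB 4 stood apart from its group, at 2.56 RPKM beside 4.48 to 4.71 in the other 3 SFB libraries. The gap was 0.914 of the group's range, above Dixon's 95% limit of 0.829 for 4 samples. It was the 1 flag among 18 groups of 4 examined, and chance flags about 1 in 20 such groups. SFB 4 also held the lowest Nr1d1 and Per3 of all libraries and the highest sum of crypt and dividing-cell markers, whose part in these values was not tested. Without SFB 4, Nr1d2 was still called in SFB against NFF.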

How the results depend on the processing

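Of 506 values of the 9 clock genes under the alternatives, 493 kept their direction and their side of the threshold, 6 lost a call, 1 gained one and 6 changed sign. The sign changes were in uncalled genes. Leaving out 1 library gave -0.039 to 0.18 for Clock in NFF against Control, -0.0085 to 0.26 for Per2 and -0.020 to 0.46 for Per3 in SFB against Control, and -0.44 to 0.041 for Per3 in SFB against NFF. Without Control 2, SFB 2 and SFB 4 together, an alternative chosen after seeing the data, Clock in NFF against Control was -0.039 and Per3 in SFB against NFF was 0.19. The number of clock genes called in SFB against NFF was 2 to 6 when 1 library was left out, lowest without NFF 2, and 5 with the replicate block.

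Counts over all genes moved more. Genes called in NFF against Control numbered 1 when only these groups were fitted, 0 to 8 when 1 library was left out (8 without SFB 4) and 22 without Control 2, SFB 2 and SFB 4. In SFB against Control, the 21 genes became 0 with the replicate block, 1 with only these groups, 7 (without SFB 2) to 94 (without SFB 4) when 1 library was left out, and 95 without the 3 libraries. In SFB against NFF, the 769 became 335 with the replicate block and 240 (without NFF 2) to 994 when 1 library was left out. The cause was not tested. Replicate numbers are not stated to pair libraries, the correlation of same-numbered NFF and SFB deviations was -0.30 to 0.03, that of Control and NFF -0.28 and -0.17, and that of Control and SFB 0.20 (number 2) and 0.67 (number 4), and no NFF library correlated best with the SFB library of its number. The read depth is unknown, so counting error, above all for Dbp and Per3, could not be given.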
